A study of Homo sapiens with 6 samples.

Results

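Potassium channel subunit genes were examined in HEK293T cells with and without valproic acid (VPA). The genes were taken by symbol, as KCN followed by letters, a number and at most 1 further letter, which took 95 of the 47470 genes listed in the count data and left out antisense and overlapping transcripts such as KCNQ1OT1. This choice was made with earlier results of these data known, so the shares below describe the family and are not an independent test of it. HEK293T is a line of human origin from embryonic kidney with the large T antigen of SV40, and VPA is an inhibitor of histone deacetylases that is used against epilepsy. The compared groups were 3 libraries of wild-type cells that received no treatment and 3 libraries of the same line after 1 day in 1 mM VPA, all from cultures in the same serum-containing medium. Each library was a strand-specific mRNA library of the whole culture of this single line, so that fewer cells with a transcript and less transcript per cell cannot be told apart. The comparison asked which potassium channel genes differed in RNA level between VPA-treated and untreated cells.

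Potassium channels let potassium ions leave or enter a cell along their gradient, which sets the resting membrane potential and ends action potentials. The KCNA to KCND, KCNH and KCNQ genes encode voltage-gated subunits, KCNJ genes inward rectifiers, KCNK genes two-pore leak channels, and KCNMA and KCNN genes calcium-activated channels. Most work as assemblies of several pore-forming subunits, joined by auxiliary subunits from the KCNAB, KCNE, KCNIP and KCNMB genes, while KCNF, KCNG, KCNS and KCNV subunits form no channel alone and modify KCNB channels.

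Depth was nearly equal, with 18622267 to 18828495 counts on genes per library. Libraries of 1 group differed by more than sampling noise (chi-square per gene of 1.62 to 4.80), and each was counted as 1 replicate. The labels do not say that the libraries came from separate cultures, so p-values measure the spread between these libraries only. All 6 markers of HEK293T cells had counts in every library, at 29.3 to 10900 normalized counts, while the 7 markers of other tissues together had 0 to 2.10 normalized counts in the untreated and 5.74 to 10.5 in the VPA-treated libraries. The part of these low counts in the results was not tested. None of the 1437 listed genes of chromosome X had a count in any library, which covers the members KCND1 and KCNE5. A 0 on this whole chromosome cannot be read as an absent transcript, and its cause was not tested.

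Of the 95 potassium channel genes, 83 had a count in at least 1 library and 51 passed the filter on low counts and were tested. A gene is called up-regulated where the adjusted p is under 0.05 and its log2 fold change reaches 1, and higher or lower where the adjusted p alone is under 0.05. By edgeR's quasi-likelihood test with Benjamini-Hochberg adjustment over all 15298 tested genes, 27 of the 51 were up-regulated after VPA (52.9%), against 12.0% of all tested genes. None of the 51 was down-regulated, against 0.503% of all tested genes. At the adjusted p alone, 47 were higher (92.2%), against 32.9% of all tested genes, and 1, KCNB2, was lower, against 30.0%. KCNJ14, KCNMB3 and KCNQ5 did not pass. In 47 of the 51 genes every VPA-treated library lay above every untreated library, against 34.8% of all tested genes, and in 1 every VPA-treated library lay below, against 31.0%. The median log2 fold change of the 51 was 1.16, against 0.0058 over all tested genes, and single genes lay between −0.49 and 4.29. Of the 51 genes, 11 passed the filter only through their counts in the VPA-treated libraries, so that they had to differ. These were KCNA2, KCND3, KCNF1, KCNH5, KCNIP1, KCNJ2, KCNJ5, KCNK9, KCNMA1, KCNN2 and KCNV1, whose fold changes and p-values are descriptions only. The shares above describe the tested genes and not all 95. Without such genes 17 of 40 potassium channel genes were up-regulated, against 8.99% of 14713 tested genes. Of the same 40 genes 36 were higher, against 4496 of the 14713. The subfamily counts and medians below include the 11 genes. KCNA to KCND and KCNJ held 2 each, KCNH, KCNK, KCNN and KCNMA with KCNMB 1 each, the remaining genes 3 and KCNQ 0. Orders of subfamilies by these values thus rest partly on the filter. All subfamily counts stand beside 12.0% up-regulated and 32.9% higher of all tested genes.

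**Figure D1:**
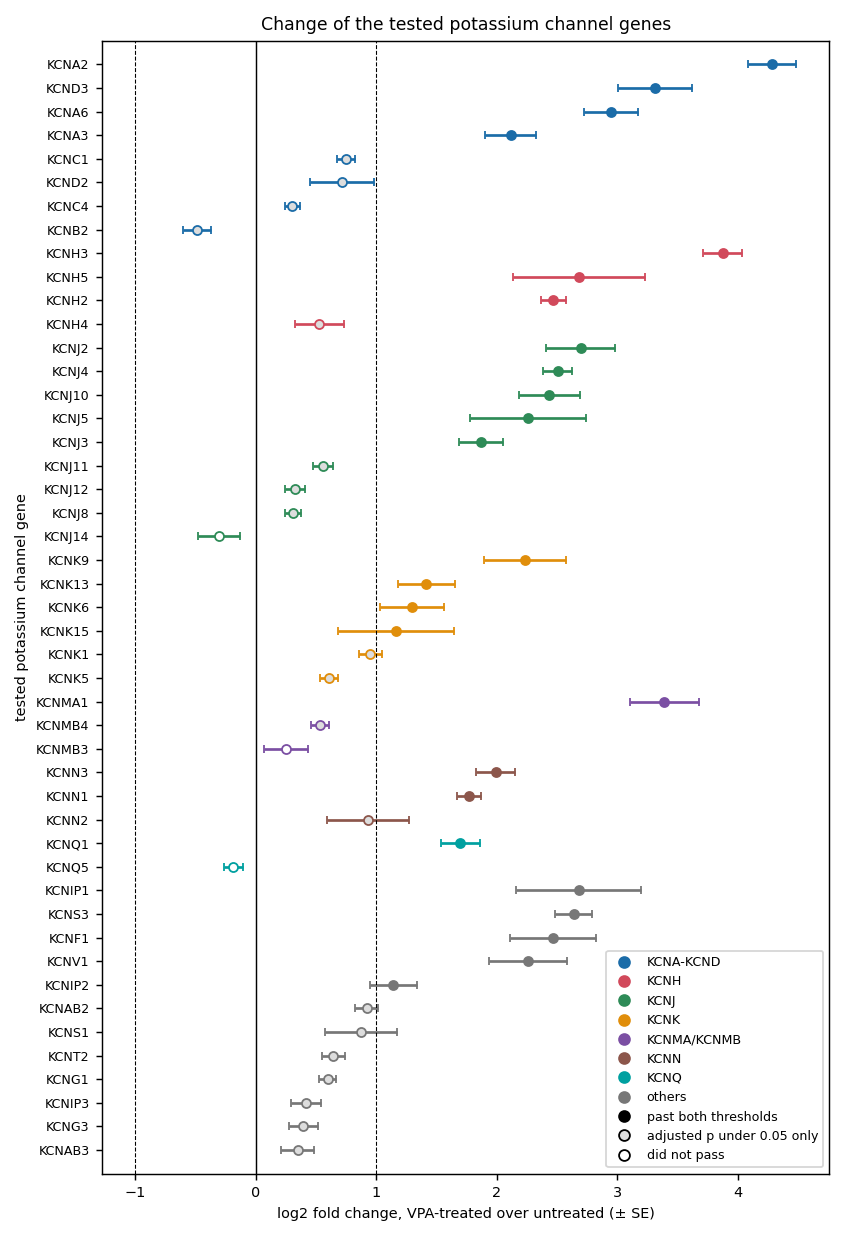
Log2 fold change (horizontal axis, VPA-treated over untreated, bars ± SE from edgeR with 3 libraries a group) of 47 of the 51 tested potassium channel genes, grouped and coloured by subfamily, with dashed lines at −1 and 1. The 25 filled points lie beyond 1 and past the adjusted p threshold, KCNA2 is farthest right at 4.29, and KCNB2 at −0.49 is the one gene left of 0 past that threshold.

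The start sites of the up-regulated genes varied in base composition. RefSeq promoter windows on GRCh38.p14, which run from 250 bases before to 50 bases after a transcript start, matched 71 of the 95 genes and 20 of the 27 up-regulated ones. The median GC content was 67.2% for the 20 up-regulated genes, 65.7% for 15 tested genes that were not up-regulated, 62.2% for 36 untested genes and 58.3% for all 27305 promoters. A ratio of observed to expected CpG of at least 0.6 was found in 12 of the 20, in 12 of the 15 and in 12 of the 36, against 49% of all promoters. Among the up-regulated genes both kinds of start occurred, and the ratio ran from 0.132 to 1.16. To show these kinds, the windows of KCNA2, KCNJ4 and KCNN1 are given, each the gene with the smallest adjusted p of its subfamily among those with a window. Each is printed from 5′ to 3′ on the strand of the gene, and capitals mark the CAAT box (CCAAT) or the GC box (GGGCGG), read on either strand. The KCNN1 window (chr19:17966857-17967156, plus strand) is rich in CpG, with 33 CpG and a ratio of 0.876. The KCNA2 window (chr1:110631391-110631690, minus strand) and the KCNJ4 window (chr22:38443979-38444278, minus strand) hold 4 CpG each, with ratios of 0.211 and 0.220. The KCNA2 window lies at the outermost start of the gene in RefSeq, while the KCNJ4 and KCNN1 windows lie within the span of the gene, at a later start.
KCNA2: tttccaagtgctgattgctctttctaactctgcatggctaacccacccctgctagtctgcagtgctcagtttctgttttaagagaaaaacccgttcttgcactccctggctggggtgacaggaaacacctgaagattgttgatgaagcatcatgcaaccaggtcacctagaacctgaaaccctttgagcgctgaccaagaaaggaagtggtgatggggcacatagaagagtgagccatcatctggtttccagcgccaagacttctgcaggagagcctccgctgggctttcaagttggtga
KCNJ4: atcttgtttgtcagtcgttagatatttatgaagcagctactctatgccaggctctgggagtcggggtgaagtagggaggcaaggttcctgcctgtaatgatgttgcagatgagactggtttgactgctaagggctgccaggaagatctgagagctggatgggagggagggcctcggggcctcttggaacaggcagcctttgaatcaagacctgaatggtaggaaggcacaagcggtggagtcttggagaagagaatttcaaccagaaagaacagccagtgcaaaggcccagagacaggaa
KCNN1: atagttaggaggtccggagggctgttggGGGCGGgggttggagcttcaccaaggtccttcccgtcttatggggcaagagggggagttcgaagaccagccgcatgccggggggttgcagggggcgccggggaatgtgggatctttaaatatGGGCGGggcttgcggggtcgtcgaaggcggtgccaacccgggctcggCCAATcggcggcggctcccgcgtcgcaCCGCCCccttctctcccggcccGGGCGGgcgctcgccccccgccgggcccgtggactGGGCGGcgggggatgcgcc

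The windows were searched on both strands for the TATA box (TATAAA), the CAAT box (CCAAT), the GC box (GGGCGG), and TTCAGCACC and GGACAG, which are parts of the element bound by REST, a repressor of neuronal genes. The GC box GGGCGG stood in 12 of the 20 windows of up-regulated genes (60%), in 12 of the 15 windows of other tested genes (80%) and in 44.6% of all promoters. CCAAT stood in 8 of the 20 (40%) and in 35.7% of all promoters, and GGACAG in 5 of the 20 (25%) and in 20.5%. TATAAA and TTCAGCACC were in 0 of the 20, and in 12.0% and 0.403% of all promoters. No window of a potassium channel gene had motifs that share bases. These matches describe the letters in the windows and are not binding sites.

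The voltage-gated KCNA to KCND genes held the gene with the largest fold change, given here as a description. Of 17 listed genes 10 were tested, 6 were up-regulated, 9 were higher and KCNB2 was lower, with a median log2 fold change of 1.90. KCNA2, a Shaker-type delayed rectifier of axons, had normalized counts of 5.17, 10.5 and 8.39 in the untreated and 169, 143 and 164 in the VPA-treated libraries. The groups were far apart, at 19.5-fold (log2 fold change 4.29 ± 0.20 SE, adjusted p = 6.65e-14, edgeR), in a gene that was tested only because its VPA-treated counts passed the filter. KCNA6, of the same Shaker class, had 11.4, 10.5 and 6.29 normalized counts untreated and 79.5, 67.4 and 73.7 after VPA (2.95 ± 0.22, adjusted p = 2.24e-10, edgeR). KCNA3, best known as the channel of T lymphocytes, had 13.4, 12.5 and 15.7 untreated and 53.6, 60.6 and 67.9 after VPA (2.12 ± 0.21, adjusted p = 1.69e-08, edgeR). All 3 tested KCNA genes were up-regulated, each with every VPA-treated library above every untreated one, against 34.8% of all tested genes. The filter fixed this separation for KCNA2 but not for KCNA3 and KCNA6.

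KCND3, which carries transient A-type current in heart and brain, had normalized counts of 7.24, 4.18 and 2.10 in the untreated and 45.0, 42.3 and 50.7 in the VPA-treated libraries. The lowest treated library lay well above the highest untreated one, at a log2 fold change of 3.31 ± 0.31 (SE; adjusted p = 5.31e-09, edgeR), and KCND3 too was tested only through its VPA-treated counts. KCNB2, a delayed rectifier subunit of neurons, went the other way, with 128, 149.6 and 155 normalized counts untreated and 116, 101 and 91.8 after VPA. The groups of KCNB2 did not overlap, and it fell by 0.49 on the log2 scale (SE 0.12, adjusted p = 0.00114, edgeR). With scaling to ribosomal protein genes its log2 fold change was −0.21 (adjusted p = 0.118), so that the call was lost.

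The KCNC genes serve fast-spiking neurons. KCNC4 had the most counts of the KCNA to KCND genes, with normalized counts of 799, 668 and 733 in the untreated and 888, 926 and 904 in the VPA-treated libraries. The groups did not overlap, although the difference was small. It was higher by a log2 fold change of only 0.30 ± 0.06 (adjusted p = 1.49e-04, edgeR), and KCNC1 was higher by 0.75. KCND2 was higher by 0.71.

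The KCNH genes had the largest median change of the subfamilies. All 4 tested genes of the 8 listed were higher and 3 were up-regulated, and their median log2 fold change was 2.58. These values include KCNH5, which passed the filter only through its VPA-treated counts. KCNH2 encodes hERG, which repolarizes the heart and is blocked by many drugs. Its normalized counts were 75.5, 82.6 and 83.9 in the untreated and 504, 427 and 409 in the VPA-treated libraries. Each treated library held several times the count of any untreated one, at 5.53-fold (log2 fold change 2.47 ± 0.10 SE, adjusted p = 1.47e-14, edgeR). KCNH3, a brain channel of the ELK class, had 10.3, 17.8 and 19.9 untreated and 252, 219 and 238 after VPA. It ranked next to KCNA2 in size of change, at 14.7-fold (3.88 ± 0.16, adjusted p = 1.21e-14, edgeR). KCNH5, of the EAG class, had few counts, at 6.21, 0 and 1.05 untreated and 11.5, 19.2 and 18.2 after VPA (2.68 ± 0.54, adjusted p = 2.28e-04, edgeR). The size of its fold was uncertain, with a log2 fold change of 4.66 without untreated replicate 1 and 2.12 without untreated replicate 2. KCNH4 was higher by 0.53. Of the untested KCNH genes, KCNH1 had 2 counts summed over the untreated and 26 over the VPA-treated libraries, KCNH7 had 2 and 18, KCNH6 had 0 and 8, and KCNH8 had 0 and 3.

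**Figure D2:**
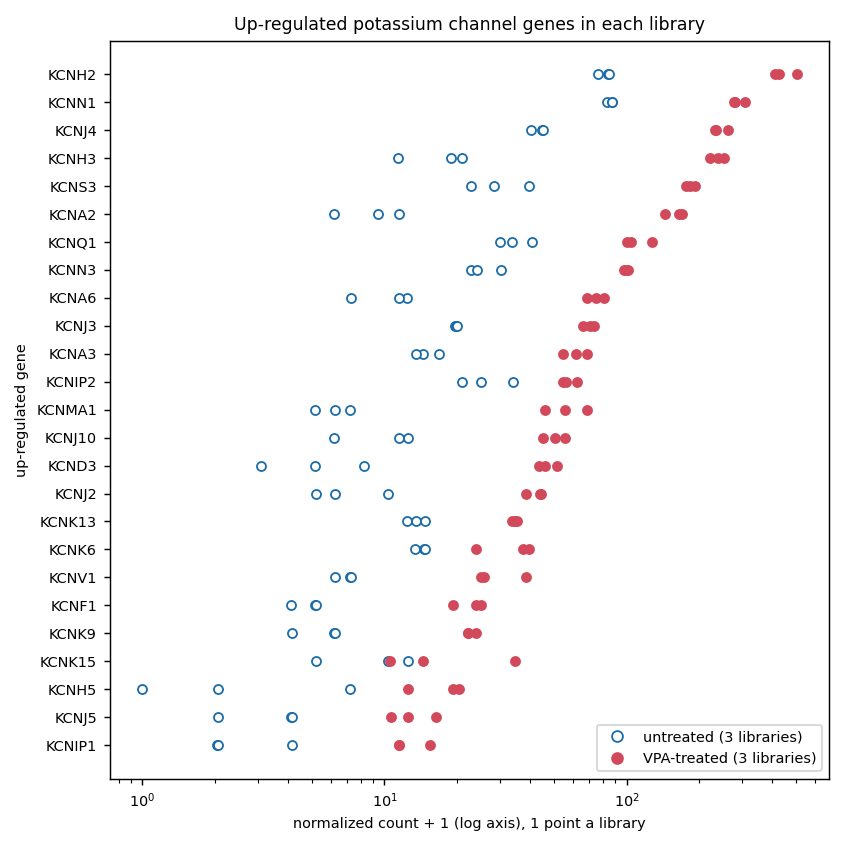
Normalized count plus 1 on a log axis for 25 of the 27 up-regulated potassium channel genes, with 1 point a library (open blue, 3 untreated, filled red, 3 VPA-treated) and genes ordered by their VPA-treated level. In 24 of the 25 genes every red point lies right of every blue point, the exception being KCNK15, against 34.8% of all tested genes. The genes were chosen as up-regulated, and those tested only through their VPA-treated counts had to separate.

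Among the inward rectifiers (KCNJ, 16 listed, 9 tested), 5 were up-regulated and 8 were higher, with a median log2 fold change of 1.87. KCNJ2 and KCNJ5 passed the filter only through their VPA-treated counts, so these numbers partly reflect the filter. The strong rectifiers were split. KCNJ4 had normalized counts of 39.3, 43.9 and 44.1 in the untreated and 260.4, 231 and 233 in the VPA-treated libraries. The groups were tight and far apart (log2 fold change 2.51 ± 0.12 SE, adjusted p = 1.21e-13, edgeR). KCNJ2, the Andersen-Tawil syndrome gene, had 9.31, 5.23 and 4.20 untreated and 37.3, 43.3 and 43.0 after VPA (6.48-fold, adjusted p = 4.09e-08, edgeR). KCNJ12 of the same class was higher by only 0.33. Its reads can be shared with KCNJ18, a near-identical copy that is listed at 0, so its count is uncertain. KCNJ14, also of this class, had 61.0, 51.2 and 43.0 untreated and 40.2, 47.2 and 38.3 after VPA, and the overlapping groups did not differ by the test (−0.31 ± 0.18, adjusted p = 0.135, edgeR).

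KCNJ10, the potassium-buffering channel of glia and kidney, had normalized counts of 5.17, 11.5 and 10.5 in the untreated and 54.6, 44.3 and 49.7 in the VPA-treated libraries (log2 fold change 2.44 ± 0.26 SE, adjusted p = 3.81e-08, edgeR). The G-protein-gated channels are opened by neurotransmitters and by the vagus nerve in the heart. Of these KCNJ3 had 18.6, 18.8 and 18.9 untreated and 69.9, 72.2 and 65.0 after VPA (1.87 ± 0.18, adjusted p = 1.22e-08, edgeR). KCNJ5 had 3.10, 3.14 and 1.05 untreated and 11.5, 9.62 and 15.3 after VPA (2.26 ± 0.48, adjusted p = 3.36e-04, edgeR). Both had groups that did not overlap, although KCNJ5 rests on few counts and the filter fixed its separation. The other two, KCNJ6 and KCNJ9, had 0 counts untreated and 3 and 2 counts over the VPA-treated libraries.

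The ATP-sensitive channels couple membrane potential to metabolism and pair a KCNJ pore with a sulfonylurea receptor. The pore gene KCNJ8 had 383, 438 and 441 normalized counts in the untreated and 502, 531 and 528 in the VPA-treated libraries. It was higher by 0.31 ± 0.07 (SE, log2; adjusted p = 4.43e-04, edgeR), with groups that did not overlap, and the pore gene KCNJ11 was higher by 0.56. The receptor genes are set beside them without a test against the pores, and ABCC9 passed the filter only through its VPA-treated counts. ABCC9 had 7.24, 5.23 and 7.34 untreated and 71.8, 70.3 and 94.7 after VPA (3.55 ± 0.25, adjusted p = 6.81e-11, edgeR), and ABCC8 had 57.9, 50.2 and 56.6 untreated and 198, 188 and 199.9 after VPA (1.83 ± 0.12, adjusted p = 1.17e-11, edgeR).

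The leak channels (KCNK, 15 listed) had 6 tested genes, of which all were higher and 4 were up-regulated, and the median log2 fold change was 1.23. KCNK9, an acid-sensitive channel of neurons, had normalized counts of 5.17, 5.23 and 3.15 in the untreated and 21.1, 21.2 and 23.0 in the VPA-treated libraries (2.23 ± 0.34 SE, adjusted p = 7.47e-06, edgeR). KCNK13, the halothane-inhibited channel of microglia, had 11.4, 12.5 and 13.6 untreated and 33.5, 32.7 and 34.4 after VPA (1.41 ± 0.24, adjusted p = 2.32e-05, edgeR). KCNK6, a weak inward rectifier, had 12.4, 13.6 and 13.6 untreated and 36.4, 38.5 and 23.0 after VPA (1.30 ± 0.26, adjusted p = 2.12e-04, edgeR). None of these 3 had overlapping groups, against 34.8% of all tested genes with every VPA-treated library above every untreated one. KCNK9 was tested only through its VPA-treated counts, so the filter fixed its separation, and the subfamily counts and median include it. KCNK15 did, at 9.31, 11.5 and 4.20 untreated and 33.5, 13.5 and 9.57 after VPA. Its call (1.16 ± 0.48, adjusted p = 0.0477, edgeR) rested on VPA-treated replicate 1, without which the log2 fold change was 0.46 (adjusted p = 0.379). The adjusted p also rose to 0.0525 without untreated replicate 2, at 1.45, and to 0.134 without untreated replicate 3, at 0.84. KCNK5, an alkaline-activated channel of kidney epithelia, had the most counts of the subfamily, at 242, 249 and 251 untreated and 398, 365 and 367 after VPA (0.61 ± 0.07, adjusted p = 3.51e-07, edgeR). KCNK1 was higher by 0.95.

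The calcium-activated channels came next. KCNMA1, the pore of the large-conductance BK channel, had normalized counts of 6.21, 4.18 and 5.24 in the untreated and 45.0, 54.9 and 67.9 in the VPA-treated libraries. Its groups did not overlap, at 10.5-fold (log2 fold change 3.39 ± 0.29 SE, adjusted p = 1.54e-09, edgeR), again in a gene that passed the filter through the VPA-treated libraries alone. The BK auxiliary subunit of neurons, KCNMB4, had far more counts before treatment, 244, 244 and 262, and reached 368, 352 and 365 (0.53 ± 0.07, adjusted p = 1.98e-06, edgeR). KCNMB3 had 36.2, 38.7 and 30.4 untreated and 40.2, 45.2 and 40.2 after VPA, which did not pass (0.25 ± 0.18, adjusted p = 0.238, edgeR) although the groups did not overlap. All 3 small-conductance (SK) genes tested were higher, among them KCNN2, which was tested only through its VPA-treated counts. KCNN1 had 81.7, 85.8 and 86.0 untreated and 281, 307 and 277 after VPA (1.77 ± 0.10, adjusted p = 1.25e-12, edgeR). KCNN3 had 21.7, 23.0 and 29.4 untreated and 96.7, 100.1 and 98.5 after VPA (1.99 ± 0.16, adjusted p = 7.20e-10, edgeR). KCNN2 was higher by 0.93, below the fold threshold, and the intermediate-conductance KCNN4 was listed at 0 in all 6 libraries.

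The KCNQ genes had the smallest median log2 fold change of the subfamilies, 0.47 over 4 tested genes of 5, of which 3 were higher. KCNMA with KCNMB came next at 0.53 over 3 tested genes, of which KCNMA1 passed the filter only through its VPA-treated counts. No KCNQ gene did so, and this order rests on KCNMA1. Without KCNMA1 there remain KCNMB3 at 0.25 and KCNMB4 at 0.53, whose midpoint lies below the KCNQ median. KCNQ1, which carries the slow repolarizing current of the heart with KCNE1, was the one up-regulated member. It had normalized counts of 29.0, 39.7 and 32.5 in the untreated and 103, 99.1 and 126 in the VPA-treated libraries, without overlap (1.70 ± 0.16 SE, adjusted p = 8.44e-09, edgeR). KCNQ3, of the neuronal M current, was untested, with 0 counts in every untreated library and 5, 4 and 11 counts after VPA, which is at least 6.67-fold higher with a floor of 3 counts over the group. KCNQ5 had 313, 297 and 305 untreated and 298, 245 and 262 after VPA, and the groups overlapped. Its log2 fold change of −0.19 ± 0.08 missed the threshold (adjusted p = 0.0541, edgeR), and passed it with the replicate number as a block (−0.19, adjusted p = 0.0202) and without VPA-treated replicate 1 (−0.27, adjusted p = 0.00985). Scaling to ribosomal protein genes turned its sign (0.091, adjusted p = 0.35).

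The remaining 25 genes are modifiers, auxiliary subunits and sodium-activated channels, of which 12 were tested, all 12 were higher and 5 were up-regulated, and the median of their log2 fold changes was 0.90. Among the modifiers, KCNS3 had normalized counts of 21.7, 38.7 and 27.3 in the untreated and 174, 191 and 183 in the VPA-treated libraries (2.64 ± 0.15 SE, adjusted p = 2.03e-12, edgeR). KCNF1 had 3.10, 4.18 and 4.20 untreated and 23.0, 24.1 and 18.2 after VPA (2.47 ± 0.36, adjusted p = 3.96e-06, edgeR). KCNV1 had 6.21, 6.27 and 5.24 untreated and 24.9, 24.1 and 37.3 after VPA (2.26 ± 0.32, adjusted p = 3.15e-06, edgeR). These 3 silent subunits had groups that did not overlap, against 34.8% of all tested genes with every VPA-treated library above every untreated one. KCNF1 and KCNV1 were tested only through their VPA-treated counts, so the filter fixed their separation. The counts and median of these 25 genes include them and KCNIP1, which passed in the same way. KCNG1 had the most counts of the 25 genes, 447, 373 and 423 untreated and 679, 606 and 596 after VPA (0.60 ± 0.07, adjusted p = 2.77e-07, edgeR). KCNS1 and KCNG3 were higher by 0.87 and 0.39.

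The calcium sensors of KCND channels (KCNIP) and the other auxiliary subunits had 2 of 7 tested genes up-regulated, beside 25 of 44 pore-forming or modifier subunits, a difference that was not tested. Of all tested genes 12.0% were up-regulated. The filter was passed only through VPA-treated libraries by 1 of the 7 and by 10 of the 44. KCNIP1 had normalized counts of 1.03, 1.05 and 3.15 in the untreated and 10.5, 14.4 and 10.5 in the VPA-treated libraries (2.68 ± 0.52 SE, adjusted p = 1.23e-04, edgeR), and its log2 fold change was 3.35 without untreated replicate 3. KCNIP2 had 33.1, 19.9 and 24.1 untreated and 61.3, 53.9 and 55.5 after VPA (1.14 ± 0.19, adjusted p = 2.65e-05, edgeR). Without untreated replicate 2 it stood at 0.98, just under the fold threshold. Neither gene had overlapping groups, which the filter fixed for KCNIP1, tested only through its VPA-treated counts. The oxidoreductase-like subunits KCNAB2 and KCNAB3 were higher by 0.92 and 0.35, KCNIP3 by 0.42 and the sodium-activated pore KCNT2 by 0.64. None of the KCNE genes was tested, and KCNE1, KCNE2, KCNE3 and KCNE4 had 7, 6, 1 and 4 counts over the untreated and 9, 7, 5 and 6 over the VPA-treated libraries.

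Some of the smaller differences lost the adjusted p threshold with 1 library fewer, in several cases at nearly the same log2 fold change, which is given in parentheses. KCND2 lost its adjusted p without untreated replicate 1 (0.46), VPA-treated replicate 2 (0.70) or VPA-treated replicate 3 (0.68). KCNH4 lost it without untreated replicate 1 (0.53), untreated replicate 2 (0.49), VPA-treated replicate 1 (0.43) or VPA-treated replicate 2 (0.48), and KCNAB3 without untreated replicate 1 (0.26), untreated replicate 2 (0.34), VPA-treated replicate 1 (0.31) or VPA-treated replicate 3 (0.35). KCNN2 lost it without untreated replicate 2 (0.72) or VPA-treated replicate 1 (0.80), and KCNS1 without untreated replicate 2 (0.64) or VPA-treated replicate 2 (0.70). KCNIP3 lost it without untreated replicate 3 (0.29). By DESeq2 these 6 genes missed the threshold with adjusted p between 0.0669 and 0.217, as did KCNG3 (0.0913) and KCNK15 (0.0919). The log2 fold change reached the threshold of 1 for KCNN2 without untreated replicate 1 (1.09), KCNS1 without untreated replicate 3 (1.24) or VPA-treated replicate 1 (1.00), and KCNK1 without VPA-treated replicate 3 (1.02).

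Summed over all 95 genes, potassium channel transcripts made up 5515, 5303 and 5487 normalized counts in the untreated and 10054, 9662 and 9453 in the VPA-treated libraries. The groups did not overlap, and the sum was 1.79-fold higher after VPA, from 5435 ± 115 to 9723 ± 305 (mean ± SD, n = 3). The KCNH genes had the largest ratio of sums, 5.91-fold, from 128 ± 6.10 to 757 ± 66.9. KCNN genes followed at 3.44-fold, KCNA to KCND genes at 1.83-fold, KCNK genes at 1.79-fold, the remaining genes at 1.73-fold, and KCNJ and KCNMA with KCNMB genes at 1.58-fold each. The KCNQ genes had the smallest ratio, 1.31-fold. These sums weight long and well-counted genes most and were not tested.

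**Figure D3:**
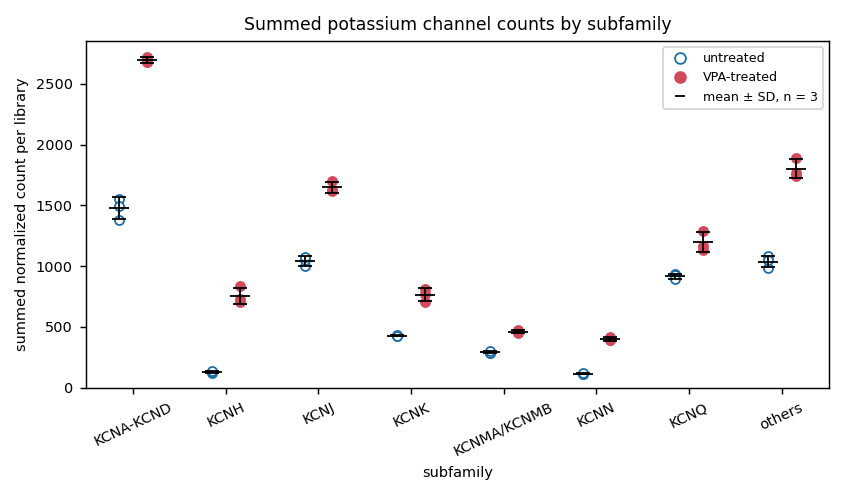
Summed normalized count of each potassium channel subfamily per library (vertical axis, linear from 0), with open points for the 3 untreated and filled points for the 3 VPA-treated libraries and bars for mean ± SD. In every subfamily the treated points lie above the untreated ones, from 1.31-fold for KCNQ to 5.91-fold for KCNH.

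The size of the change went with the level before treatment. Over the 51 genes the log2 normalized count in untreated cells and the log2 fold change had a Pearson r of −0.69 and a Spearman rho of −0.73, against −0.55 and −0.50 over all 15298 tested genes. These are correlations across genes of the same libraries, and the untreated level enters both measures. The 11 genes that passed the filter only through VPA-treated libraries had to combine low untreated counts with a rise. They build in a part of the correlation, as such genes do over all tested genes, and no correlation was computed without them. By mean normalized count over the 6 libraries, 18 of 24 potassium channel genes under 50 were up-regulated (75%), against 29.4% of all 3104 genes in that class. From 50 to 200 these were 7 of 14 (50%), against 24.3% of 2434 genes, and at 200 or more 2 of 13 (15.4%), against 3.38% of 9760 genes. Of the 24 genes under 50, 10 had passed the filter only through the VPA-treated libraries, and 9 of the 18 calls were theirs. Without such genes 9 of 14 potassium channel genes under 50 were up-regulated (64.3%), against 16.2% of 2527 genes, and 6 of 13 from 50 to 200 (46.2%), against 24.0% of 2426. The median log2 fold changes of the potassium channel genes in these classes were 2.18, 1.32 and 0.56, against 0.39, 0.34 and −0.079 for all genes.

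**Figure D4:**
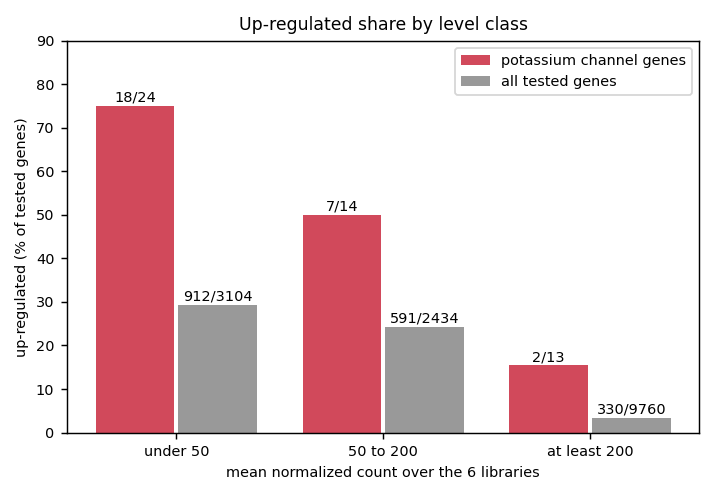
Share of tested genes that were up-regulated (vertical axis, percent) in 3 classes of mean normalized count over the 6 libraries, for potassium channel genes (red) and all tested genes (grey), with the counts above each bar. The red bars stand at 75%, 50% and 15.4%, each above the grey bar beside it, and 9 of the 18 calls in the lowest class are genes that passed the filter only through the VPA-treated libraries.

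Per exon length, the order of the genes changed little. The rank correlation of the 51 genes between untreated and VPA-treated levels, in normalized counts per kb of exon, was 0.90. The same exon length enters both levels of a gene. KCNJ8 had the highest level per kb in both groups, at 167 ± 13.0 untreated and 207 ± 6.46 after VPA (mean ± SD, n = 3). Behind it in untreated cells came KCNG1 at 76.5 ± 6.92, KCNK5 at 65.3 ± 1.20 and KCNMB4 at 51.4 ± 2.18, neighbours that differed by more than their SDs. After VPA the levels of KCNJ4 at 117 ± 7.91, KCNG1 at 116 ± 8.34 and KCNK5 at 99.6 ± 4.93 were also among the highest, and KCNJ4 and KCNG1 did not differ beyond their spread. Ranked over all 95 genes, KCNJ4 moved from place 15 to 2, KCNH3 from 31 to 14, KCNH2 from 22 to 10, KCNS3 from 23 to 12 and KCNA2 from 51 to 33. KCNA2, although the gene with the largest fold change, reached only 8.47 ± 0.71 normalized counts per kb. Its length of 18723 bases joins all its GENCODE exons, and the annotation used for counting is not given. Levels per kb may thus be too low for genes with many transcript forms.

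**Figure D5:**
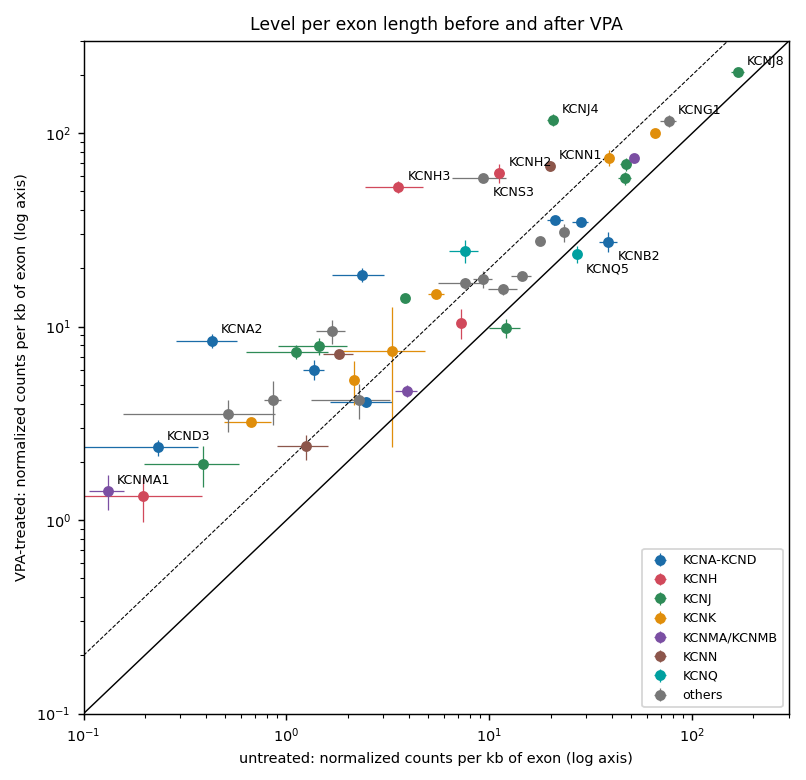
Level of 47 of the 51 tested potassium channel genes in normalized counts per kb of exon, untreated (horizontal) against VPA-treated (vertical), both on log axes, as mean ± SD of 3 libraries, with a solid line at equality and a dashed line at 2-fold. KCNJ8 lies at the top of both axes near the solid line, while KCNJ4, KCNH3, KCNH2, KCNS3 and KCNA2 lie above the dashed line.

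Counts also appeared in genes that were too low to test. The number of potassium channel genes with at least 10 counts was 36, 39 and 38 in the untreated and 54, 55 and 54 in the VPA-treated libraries, and 23 genes had 0 counts in every untreated library against 12 in every VPA-treated one. Detection was also wider over all listed genes, with 14545 to 14646 genes of at least 10 counts in the untreated and 15501 to 15567 in the VPA-treated libraries, and 50.7% and 47.0% of the listed genes at 0 in every library of the group, against 24.2% and 12.6% of the potassium channel genes. Of the 32 counted but untested genes, 29 had more counts over the VPA-treated than over the untreated libraries, 1 had fewer and 2 had equal counts, with 79 and 308 counts in all. Among all 11055 counted but untested genes 63.5% had more counts after VPA, against 90.6% of these 32. The largest differences were in KCNA1, the episodic ataxia gene (4 and 39 counts), the mechanically gated KCNK2 (2 and 26), KCNAB1 (5 and 24) and the kidney channel KCNJ1 (10 and 29), besides KCNH1 and KCNQ3. KCNA7 had 13 and 28 counts, KCNK12 had 4 and 14, KCNA4 had 1 and 7, and KCNK3 had 0 and 6. KCNK7 had 8 and 3. The others, KCNC2, KCNG2, KCNJ15, KCNK4, KCNK10, KCNK16, KCNMB1, KCNMB2, KCNS2, KCNT1, KCNU1 and KCNV2, had at most 5 counts over either group. DESeq2, which kept more low genes, called 30 genes up-regulated, 26 of them shared with edgeR, and its 4 others were KCNA1 (adjusted p = 0.00241), KCNH1 (0.0118), KCNK2 (0.0119) and KCNQ3 (0.00205). The genes at 0 in all 6 libraries were KCNA5, KCNA10, KCND1, KCNE5, KCNG4, KCNIP4, KCNJ13, KCNJ16, KCNJ18, KCNK17, KCNK18 and KCNN4. Of these, KCND1 and KCNE5 lie on chromosome X, where no listed gene had a count, so their RNA level is unknown. The shares of genes at 0 above include the genes of that chromosome.

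Some up-regulated genes overlap another gene on the opposite strand, and the strand setting of the counting is not given in the sources used here, so reads of such pairs may be mixed. Some partners were lower after VPA. MCRS1, which overlaps KCNH3, had a log2 fold change of −0.51, and DDX20, which overlaps KCND3, had −0.40. KCNK15 overlaps RIMS4, which was higher by 0.75, and KCNK15-AS1, higher by 0.80, and KCNJ5 overlaps KCNJ5-AS1, higher by 0.86.

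Other genes of potassium transport were counted beside the channels. Of 18 listed genes of the sodium-potassium and proton-potassium pumps 9 were tested, 6 were up-regulated, 7 were higher and 1 was lower, FXYD1 being tested only through its VPA-treated counts. ATP1B2, a pump subunit of glia and neurons, rose by 2.11, the regulators FXYD1, FXYD6 and FXYD5 by 3.19, 1.38 and 1.15, and ATP12A by 1.63. Of 14 listed cotransporter and exchanger genes (SLC12 and SLC24) 10 were tested, 2 were up-regulated, 4 were higher and 1 was lower, the up-regulated ones being SLC24A2 (1.47) and SLC24A4 (1.45), counts that lie near the 12.0% up-regulated and 32.9% higher of all tested genes. Of 10 listed channel partners 4 were tested, and ABCC8 and ABCC9 were the 2 that were up-regulated.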

How the data were processed

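Strand-specific mRNA libraries of HEK293T cells were sequenced, 3 from untreated cells and 3 after 1 day in VPA at 1 mM. The authors cleaned reads with SOAPnuke, used STAR to align them to hg38, and obtained gene counts from htseq-count. These raw counts, not normalized, are what was deposited by the authors. Versions in the submitters' processing notes are STAR 2.7.10b and HTSeq 2.0.1, while the gene annotation and the strand setting are not given in the sources used here. Reads on no gene were 6.80% to 7.69% of a library, ambiguous ones 1.97% to 2.10% and those without a unique place 2.81% to 2.92%. These summary lines name no gene and did not enter library sizes or tests.

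Groups came from the sample labels. The tests were run in R 4.3.3 with edgeR 4.0.16. Libraries were scaled by TMM, genes were kept by filterByExpr (count minimum 10 at median depth in at least 3 libraries), and the quasi-likelihood model was robust, held condition alone and used 0.125 as prior count. P-values were adjusted by Benjamini-Hochberg over all tested genes, with thresholds of 0.05 for the adjusted p and 1 for the log2 fold change. Normalized counts use TMM and the mean library size, SE is the log2 fold change over the root of F, and levels per kb use GENCODE exons merged per gene. The biological coefficient of variation was 3.83%, and errors are wide where counts are few. Coordinates and promoters are from RefSeq on GRCh38.p14, which had coordinates for all 95 genes. Correlations used a pseudocount of 0.5.

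Values in every library were given for members past both thresholds, members lower at the adjusted p, members that did not pass and the member with the most counts of each subfamily, except that the values of some genes are not reported here, although they enter the counts, sums and medians. Members, other gene lists and tests were chosen with earlier results of these data known. The other potassium genes were the pumps (ATP1, ATP4, ATP12A and FXYD genes), the SLC12 and SLC24 transporters and partners of channel subunits such as ABCC8, ABCC9, AMIGO1 and LRRC26. Alternatives were DESeq2 1.42.0, 4 other scalings, 3 other filters, glmTreat, an FDR of 0.01, a prior count of 2, leaving out each library, blocking on replicate number, and, added after seeing the data, leaving out genes that passed the filter only through VPA-treated libraries. The fit was tested on simulated data.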

Additional observations from a re-analysis of the deposited data

How the results depend on the processing

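Between 26 and 30 potassium channel genes were up-regulated, 43 to 46 higher and 1 to 2 lower when single libraries were left out, and the median log2 fold change of the tested genes was 1.15 to 1.44. The scaling moved the median over all tested genes from 0.0058 to 0.137 with library totals and to 0.282 with ribosomal protein genes. The potassium channel median was then 1.29 and 1.44, which is 1.16 above the median of all genes in each case, as with TMM. With ribosomal protein scaling 0 genes were lower and KCNQ5 reversed to 0.091, and with DESeq2 size factors, no filter or the replicate block 2 were lower, KCNQ5 being added. DESeq2 gave a median of 1.34 with 30 genes up-regulated, 2 of them KCNQ genes, and 42 higher. Without the filter 83 genes were tested, the median was 1.66, and 36 were up-regulated, with 6 KCNH and 2 KCNQ genes. A mean of at least 10 counts gave a median of 1.05. A mean of at least 50 counts left 27 genes tested, 9 up-regulated and 25 higher, with a median of 0.64, and the up-regulated genes were 2 of KCNA to KCND, 1 of KCNJ, 0 of KCNK, 0 of KCNMA and KCNMB and 1 of the remaining genes. This stricter filter removed the genes with few counts, among which most up-regulated genes lay. With the fold threshold inside the test (glmTreat) 23 were up-regulated, 1 of them a KCNK gene. In a setting chosen after seeing the data, without genes that passed the filter only through VPA-treated libraries, 17 of 40 genes were up-regulated, among them 3 of KCNJ, 0 of KCNMA and KCNMB and 2 of the remaining genes, and the median was 0.81, since those genes had to be higher. The cause of the other movements was not tested. None of these settings made a potassium channel gene down-regulated. Of 789 comparisons of a single gene with an alternative, 737 kept direction and call, 32 fell short of a threshold, 19 newly passed one and 1 reversed.

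Replicate numbers are shared between the groups, but the labels do not say that a number marks a shared culture. Same-numbered libraries had correlations of their deviations of 0.12, 0.016 and 0.065 over 15298 genes, and of 0.40, 0.14 and 0.33 over the 11064 genes whose mean was 100 counts or more, where each library correlated best with its own number. With the replicate number as a block 27 genes were up-regulated, as without it, and the call of KCNQ5 alone changed among the 51. Depth limits what can be said of the 32 counted genes that were not tested.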

Other observations

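Of 24 listed antisense, divergent and intronic transcripts named after potassium channel genes, 15 had 0 counts in all 6 libraries and 6 were tested. KCNC4-DT, which starts beside KCNC4 on the other strand, had 22.8, 29.3 and 19.9 normalized counts in the untreated and 49.8, 63.5 and 63.1 in the VPA-treated libraries. It was up-regulated (log2 fold change 1.29 ± 0.20 SE, adjusted p = 6.52e-06, edgeR), beside 0.30 for KCNC4 itself. KCNJ5-AS1 rose from 77.3 to 141 normalized counts (0.86, adjusted p = 8.68e-06, edgeR) and KCNK15-AS1 from 13.5 to 23.6 (0.80, adjusted p = 0.0217, edgeR). KCNQ1OT1, the imprinted transcript antisense to KCNQ1, had 299, 256 and 213 untreated and 299.7, 286 and 299 after VPA, which overlap, and did not pass (0.20 ± 0.10, adjusted p = 0.0688, edgeR), beside 1.70 for KCNQ1. KCNIP2-AS1 (0.19, adjusted p = 0.634) and KCNMB2-AS1 (0.055, adjusted p = 0.858) did not pass either.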
